A study of Mus musculus with 55 samples.

Results

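The microglia genes examined here are P2ry12, P2ry13, Aif1, Fcrls, Cx3cr1, Csf1r, Tmem119, C1qa, C1qb and Trem2. They were chosen by name as genes that mark microglia. This choice, like that of the marker lists below, was made with earlier results of these data known. Counts of them set beside all genes are therefore descriptions. The array held 1 probe set for each of the 10, out of 19938 genes with a usable probe set. All 10 lay above the filter on low levels and were among the 14949 genes tested.

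RNA came from bisected cerebellum of C57Bl/6 mouse pups at postnatal day (PND) 22, after daily subcutaneous dosing on PND 4 to PND 21. The pups received chlorpyrifos oxon (CPO), which the body forms from the insecticide chlorpyrifos. The daily doses were 0.35 and 0.5 mg/kg, and control pups got dimethyl sulfoxide (DMSO) as vehicle. CPO inhibits cholinesterases, and paraoxonase 1 (PON1) hydrolyses it. Each of 55 Affymetrix arrays gave 1 log2 expression level per probe set, and the comparisons ask whether genotype or CPO changed these levels. The genotypes were tgHuPON1R192 (R192) and tgHuPON1Q192 (Q192), which carry a human PON1 transgene of the named variant, Pon1-/- (labelled KO) and Pon1+/+ (wild type, WT). R192 and Q192 each had 4 vehicle arrays, 5 at CPO 0.35 and 5 at CPO 0.5. The arrays labelled KO numbered 4 for vehicle, 5 at 0.35 and 3 at 0.5, and the WT arrays 6, 6 and 3. All groups shared strain, age and injection route, and the vehicle pups were injected too. The labels name neither the promoter of the transgenes nor which Pon1 alleles the transgenic mice carry, nor the sex of the pups.

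Microglia are the resident macrophages of the brain parenchyma and depend on signalling through the receptor CSF1R. At rest they survey the tissue, sense nucleotides through purinergic P2Y receptors and neuronal fractalkine through CX3CR1, and make most of the C1q of the brain, the protein that starts the classical complement cascade and tags synapses. In the developing cerebellum they engulf dying neurons and synaptic material while the granule cell layer forms. The whole tissue was measured, so fewer microglia and less RNA per microglial cell cannot be told apart in any result below.

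Facts of the whole series bear on every comparison. Pon1 itself went against the knockout label: its log2 level was 10.13 ± 0.11 (SD, n = 14) in R192, 10.10 ± 0.14 (n = 14) in Q192 and 10.08 ± 0.19 (n = 12) in arrays labelled KO, against 5.19 ± 0.24 (n = 15) in WT. No source used here gives the position of these probes against the disruption, so the group is called arrays labelled KO. Array medians ran between 7.37 and 7.54, and each group held arrays of both array dates. KO 0.35 replicate 5 carries a description number that otherwise belongs to R192 0.35 arrays, and is left out in turn below. Xist was high in 3 arrays, 2 of WT at 0.35 and 1 of KO vehicle. The labels do not say that each array is a separate animal, so every p-value reflects array-to-array spread alone, which may be technical.

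The members were checked first against the filter and beside markers of related cells. Every member was above the filter level of 6.44 in the mean of all arrays, at 6.95 for Aif1 to 8.75 for C1qa on the log2 scale, though levels of different probe sets cannot be set against each other. The filter was set at the 25th percentile, so 14953 of all 19938 genes lay above it. Of 32 other microglia genes in the table, 30 passed the filter, Spi1 and Csf3r being the exceptions. Among genes of cells that share some of these transcripts, 6 of 14 passed it for border macrophages, with Cd163, Ms4a7 and Cd74 among those below, 6 of 15 for monocytes and neutrophils, and 3 of 12 for lymphocytes. The shares were not tested against each other.

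The 4 members that differed between R192 arrays and arrays labelled KO are shown here by the 250 bases before their RefSeq gene start in GRCm38.p6, all on the minus strand and printed 5′ to 3′. Capitals mark GAGGAA or its reverse complement TTCCTC, the core letters bound by PU.1, the transcription factor that specifies macrophages and microglia.
P2ry13, chr3:59210883-59211132: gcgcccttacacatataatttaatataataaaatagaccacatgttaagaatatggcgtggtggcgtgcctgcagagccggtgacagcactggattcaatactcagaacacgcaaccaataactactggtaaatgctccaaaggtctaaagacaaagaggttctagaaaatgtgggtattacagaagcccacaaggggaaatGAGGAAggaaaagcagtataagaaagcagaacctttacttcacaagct
Fcrls, chr3:87263525-87263774: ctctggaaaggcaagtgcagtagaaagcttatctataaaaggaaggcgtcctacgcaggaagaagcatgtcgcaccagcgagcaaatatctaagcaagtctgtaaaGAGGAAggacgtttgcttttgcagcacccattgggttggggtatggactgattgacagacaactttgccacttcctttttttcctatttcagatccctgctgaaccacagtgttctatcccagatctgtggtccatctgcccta
P2ry12, chr3:59262986-59263235: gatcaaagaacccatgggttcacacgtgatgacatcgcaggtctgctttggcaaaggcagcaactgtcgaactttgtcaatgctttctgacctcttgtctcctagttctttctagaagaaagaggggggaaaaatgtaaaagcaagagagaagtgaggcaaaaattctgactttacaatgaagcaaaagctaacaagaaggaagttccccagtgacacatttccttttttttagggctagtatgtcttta
Aif1, chr17:35176053-35176302: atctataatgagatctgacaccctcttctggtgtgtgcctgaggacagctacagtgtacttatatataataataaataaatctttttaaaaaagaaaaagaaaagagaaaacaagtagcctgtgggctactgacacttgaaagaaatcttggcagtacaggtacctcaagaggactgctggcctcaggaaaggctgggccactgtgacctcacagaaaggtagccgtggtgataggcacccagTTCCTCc

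Promoters were found in the RefSeq table for 7 of the 10 members, and 5 of the 7 held GAGGAA on either strand in these 250 bases, against 23.3% of 32851 promoters. The match began 48 bases before the gene start in P2ry13, 144 in Fcrls and 7 in Aif1, and also lay 30 bases before that of C1qb and 40 before that of Trem2. P2ry12 held none, as did the seventh promoter, that of Cx3cr1. The longer string GAGGAAGT was in 0 of 7, against 2.44% of all promoters. A match of letters is not a bound site, and the absence of one in this window says nothing of the factor.

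Group means of the members spread over less than 1 log2 unit. The span between the lowest and the highest group mean was 0.73 on the log2 scale for Fcrls and 0.70 for P2ry13, and 0.17 for Trem2. When the groups were ordered by mean, 0 of 110 steps between neighbours exceeded the larger SD of the 2 groups, and the ends lay further apart than any such step. The lowest group was KO 0.5 for 7 of 10 members, and the highest was WT 0.5 for 5, WT vehicle for 3 and R192 0.35 for 2. These means were not adjusted for array date. The mean of the 10 members was 8.02 in the 27 arrays of the first date and 8.13 in the 28 of the second. KO 0.5 had 2 arrays of the first date and 1 of the second, and WT 0.5 had 1 and 2. The part of array date in this order was not tested. SDs were also taken over all arrays of a genotype, with treatments and array dates pooled, so they include differences between those. Their median over the members was 0.16 in R192, 0.13 in Q192 and 0.19 in arrays labelled KO, against 0.31 in WT. The pooled SD was larger in WT than in R192 and Q192 for 10 of 10 members. Against arrays labelled KO it was larger in WT for 8, the exceptions being Aif1 and Tmem119. Within groups that order did not hold for Aif1, whose SD at each treatment was larger in R192 than in WT. The other members were not counted in this way.

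**Figure D1:**
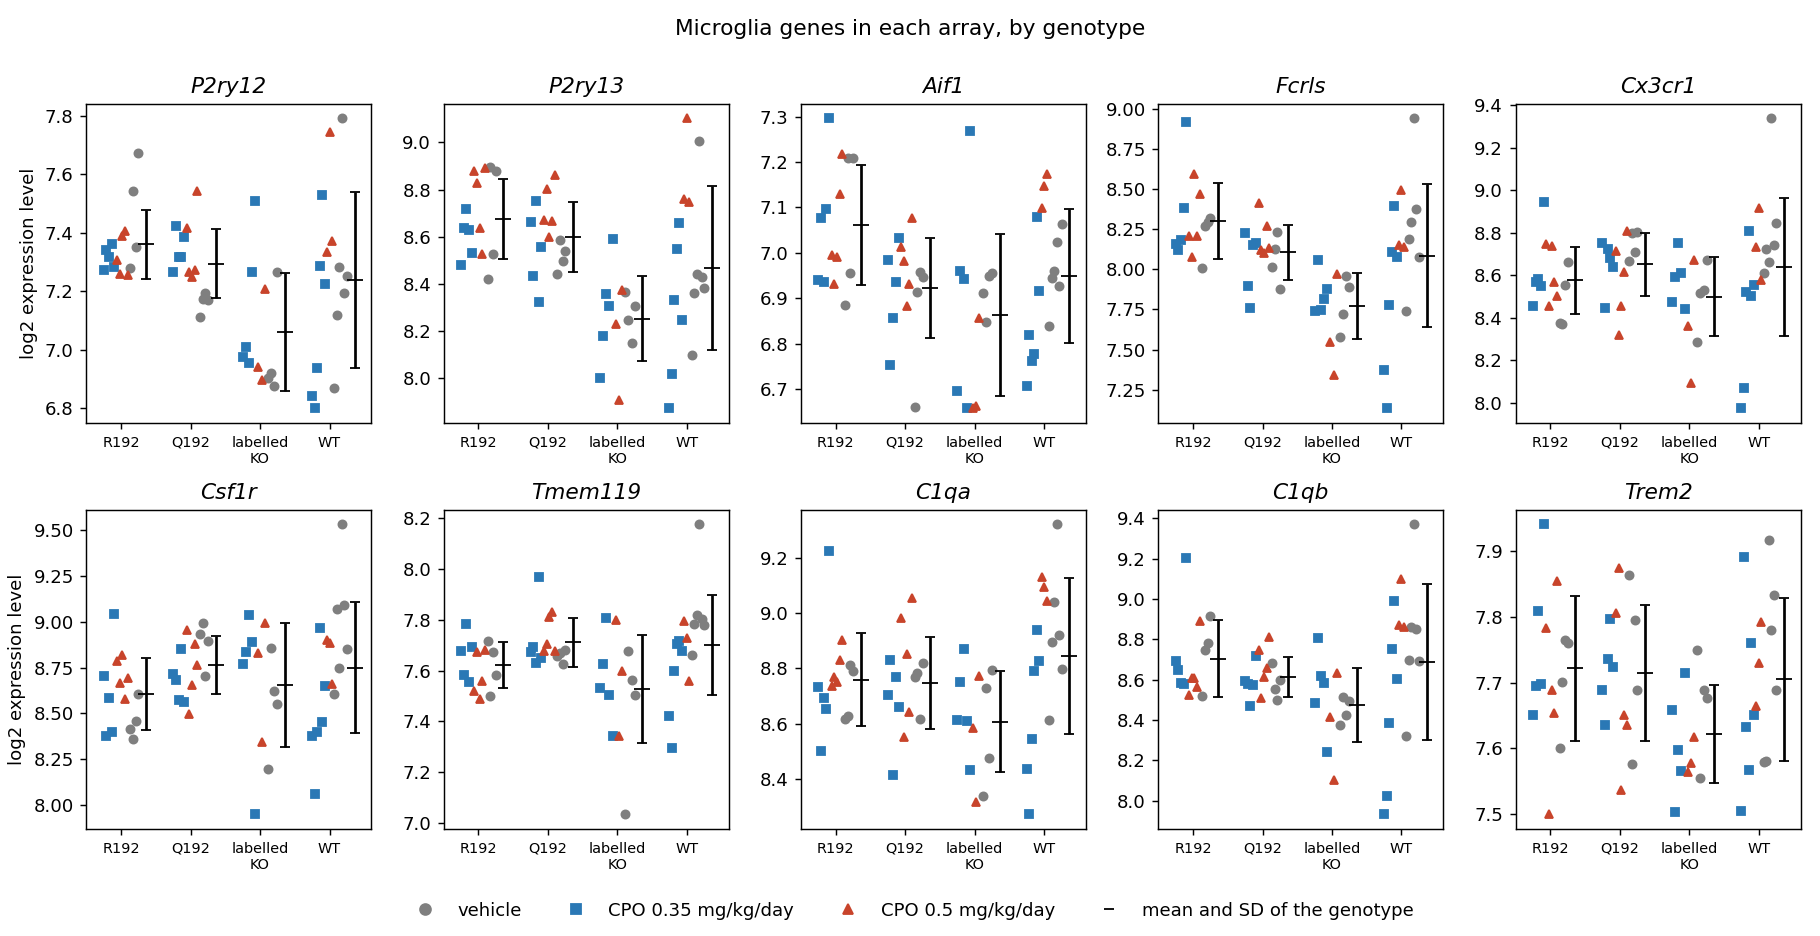
Log2 expression level of the 10 microglia genes in each of 55 arrays, by genotype, with the treatment as colour and shape and the mean and SD of each genotype as a bar. P2ry13 and Fcrls sit higher in R192 than in arrays labelled KO with little overlap, and Csf1r overlaps throughout. For Trem2 the R192 range encloses that of arrays labelled KO, with 6 of 14 R192 arrays above every array labelled KO. With treatments and array dates pooled, WT has a larger SD than R192 and Q192 for every member. It is also larger in WT than in arrays labelled KO for all but Aif1 and Tmem119.

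The clearest difference lay between the R192 mice and the mice labelled KO. On the mean of the 3 treatments, 4 of 10 members were higher in R192 at an adjusted p under 0.05, namely the purinergic receptors P2ry13 and P2ry12, the orphan Fc receptor-like gene Fcrls and Aif1, which encodes the actin-binding protein IBA1. Over all genes tested 5.61% passed (839 genes), and 2.66% passed as higher. The other 6 members did not pass, and 5 of those 6 were also higher, which made 9 of 10 higher beside 52.7% of all genes. At an unadjusted p under 0.05 there were 7 members and 22.4% of all genes. The ranges of the groups overlapped for all 10 members, as they did for all but 0.0334% of genes. The median of the 10 differences was 0.18 on the log2 scale, where that of all genes was 0.0055.

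P2ry13, a receptor for adenosine diphosphate, had a log2 level of 8.42 at the lowest, 8.64 at the median and 8.90 at the highest R192 array, against 7.90, 8.28 and 8.59 in arrays labelled KO. All 14 R192 arrays lay above the mean of arrays labelled KO. The ranges overlapped only through KO 0.35 replicate 5 at 8.59, since the next highest of those arrays had 8.37. The difference was 0.42 ± 0.08 (SE), or 1.34-fold, with an adjusted p of 0.0014 in limma.

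Fcrls, a gene whose expression in the mouse brain marks microglia, had log2 levels of 8.01, 8.24 and 8.92 at the lowest, median and highest R192 array, against 7.34, 7.78 and 8.06 in arrays labelled KO. The groups overlapped by 1 array, and 13 of 14 R192 arrays lay above every array labelled KO. Its difference of 0.54 ± 0.10 (SE), 1.45-fold, was the largest of the 10 members (adjusted p = 0.0017, limma).

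P2ry12, the receptor through which resting microglia extend processes toward ADP and ATP, had 7.26, 7.33 and 7.67 in R192, against 6.88, 6.97 and 7.51 in arrays labelled KO. Aif1 had 6.89, 7.04 and 7.30 in R192, against 6.66, 6.88 and 7.27 in arrays labelled KO. For both genes the highest array labelled KO was replicate 5 at 0.35, and among the other 11 the highest were 7.27 for P2ry12 and 6.96 for Aif1. P2ry12 differed by 0.30 ± 0.07 (SE), 1.23-fold (adjusted p = 0.0124), and Aif1 by 0.20 ± 0.05, 1.15-fold (adjusted p = 0.0156, both limma).

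The 4 differences were larger without KO 0.35 replicate 5, at 0.46 for P2ry13, 0.55 for Fcrls, 0.35 for P2ry12 and 0.25 for Aif1, and adjusted p was between 0.000188 and 0.000962. The count stayed at 4 of 10 when any single array of either genotype was left out. The number of all genes passing moved far more, between 365 without KO 0.5 replicate 3 and 2314 without KO 0.35 replicate 5.

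The 4 genes differed the same way within each array date and each treatment, but none passed there. On the first array date the differences were 0.44 for P2ry13, 0.56 for Fcrls, 0.32 for P2ry12 and 0.17 for Aif1, and on the second 0.38, 0.46, 0.27 and 0.24. In vehicle arrays alone they were 0.41, 0.44, 0.46 and 0.15, in CPO 0.35 arrays 0.29, 0.50, 0.14 and 0.14, and in CPO 0.5 arrays 0.57, 0.67, 0.29 and 0.32. The lowest adjusted p of the 4 in any of these was 0.0755. These treatments alone were looked at after the data had been seen.

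Among the complement genes, C1qb, which encodes a chain of C1q, was the nearest to passing. It had 8.52, 8.63 and 9.21 at the lowest, median and highest R192 array, against 8.10, 8.49 and 8.81 in arrays labelled KO, and all 14 R192 arrays lay above the mean of arrays labelled KO. The groups overlapped, with a difference of 0.25 ± 0.09 (SE, adjusted p = 0.0735). C1qa, which encodes another C1q chain, differed by 0.16 ± 0.08 (adjusted p = 0.210). Trem2, the lipid-sensing receptor of activated microglia, differed by 0.10 ± 0.05 (adjusted p = 0.203).

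The receptors Cx3cr1 and Csf1r and the surface protein Tmem119 overlapped throughout. Csf1r was the 1 member with a negative difference, -0.05 with a 95% interval of -0.25 to 0.15. It had 8.36, 8.59 and 9.04 in R192, against 7.95, 8.80 and 9.04 in arrays labelled KO. The interval was -0.07 to 0.23 for Cx3cr1, the fractalkine receptor, and -0.02 to 0.22 for Tmem119, a gene used to tell microglia from other macrophages. Whether the members differ from each other in their response to genotype was not tested.

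**Figure D2:**
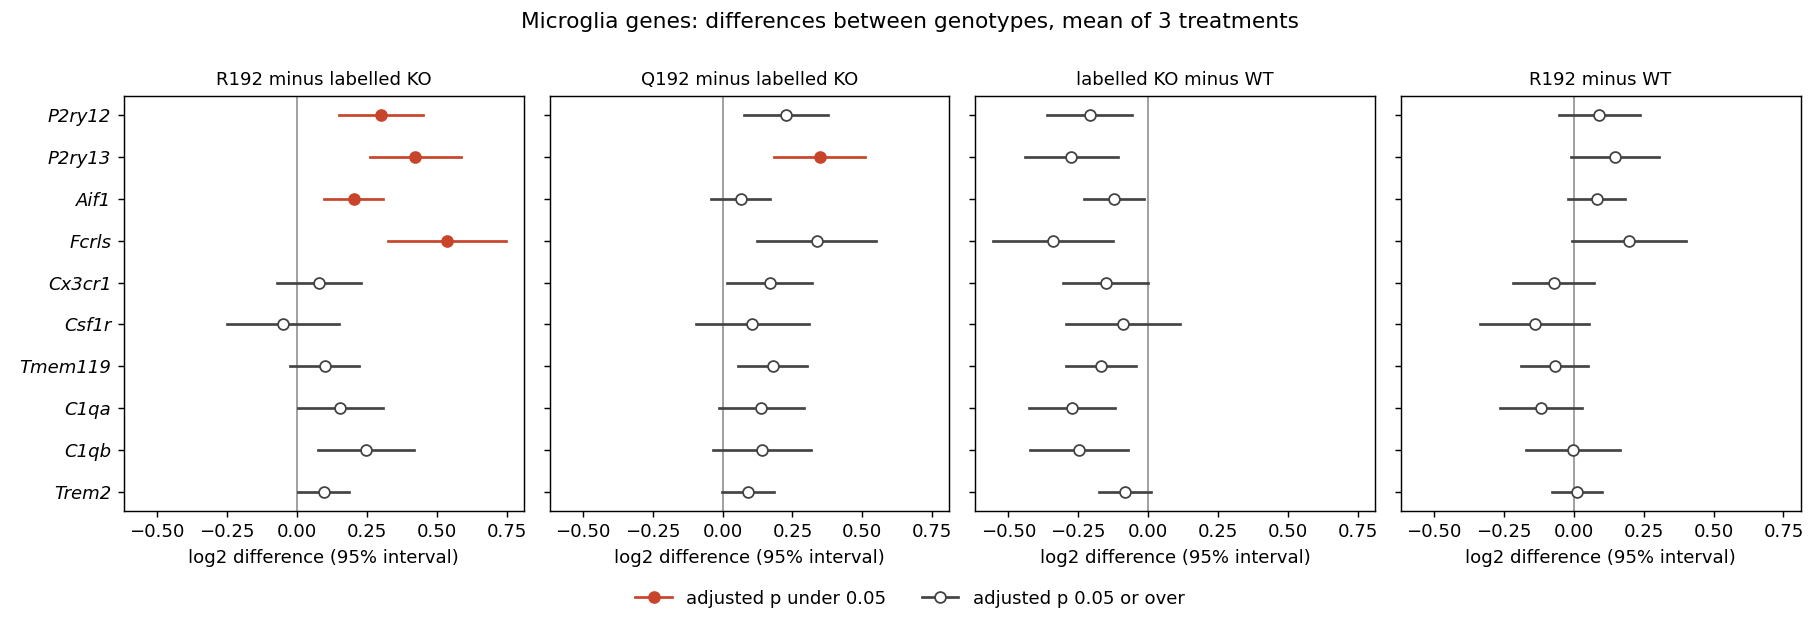
Log2 differences of the 10 microglia genes between genotypes on the mean of 3 treatments, with 95% intervals; filled points have an adjusted p under 0.05. P2ry12, P2ry13, Aif1 and Fcrls are filled in R192 minus arrays labelled KO, P2ry13 alone in Q192 minus arrays labelled KO, and no point is filled against WT.

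Lists of other genes were counted in the same comparison, where 5.61% of all genes passed and 2.66% passed as higher. Of 30 other microglia genes tested, 29 were higher in R192 than in arrays labelled KO and 8 passed, all higher, with a median difference of 0.13. The 8 were Siglech, Tyrobp, Cd53, Ly86, Hpgds, Dock2, Cyth4 and Slc2a5. Cd53, a tetraspanin of leukocytes, differed by 0.43 ± 0.11 (SE, adjusted p = 0.0124), and Dock2, a Rac activator of blood-derived cells, by 0.36 ± 0.06 (adjusted p = 0.0007775). Tyrobp, the adaptor through which TREM2 signals, differed by 0.24 ± 0.08 (adjusted p = 0.0492). Of 15 genes of the activated state, 1 passed as higher, the tetraspanin Cd63 at 0.29 ± 0.08 (adjusted p = 0.0267). Of 13 genes for signals to and from microglia, 1 passed as lower, the anti-phagocytic surface protein Cd47 at -0.16 ± 0.04 (adjusted p = 0.0151). Of 10 inflammatory genes 0 passed, with 4 at an unadjusted p under 0.05 in limma. Of 6 complement genes 0 passed, with 2 at an unadjusted p under 0.05, and of 12 interferon response genes 1 passed as lower, Usp18.

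Markers of other cells differed as well. Of 20 granule neuron genes, 20 were lower in R192 and 0 passed, and the list mean ran between 10.24 and 10.71 in R192, against 10.36 to 11.12 in arrays labelled KO; its part in the result was not tested. Of 13 Purkinje cell genes 4 passed as lower (Slc1a6, Gad1, Dner and Cacna1g), and of 15 endothelial genes 4 passed as higher (Slco1a4, Abcb1a, Itm2a and Egfl7). Of 21 oligodendrocyte genes 14 were higher and 0 passed, and the list mean ran between 10.58 and 11.05 in R192, against 10.30 to 11.24 in arrays labelled KO. With that list's mean as a covariate 5 of 10 microglia genes passed, and with that of 26 brainstem neuron genes 4 did. The share of all genes passing in those fits is not set beside these counts, which therefore cannot be compared with the count in the main fit. Border macrophage genes (6 tested), monocyte and neutrophil genes (6) and lymphocyte genes (3) had 0 passing. The mean of the border macrophage genes ran between 6.88 and 7.18 in R192, against 6.82 to 7.44 in arrays labelled KO.

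P2ry12, P2ry13 and Fcrls lie on chromosome 3 and Aif1 on chromosome 17. Chromosome 3 had 46 of 693 tested genes passing (6.64%) and chromosome 17 had 43 of 716 (6.01%), beside 5.61% of all genes. P2ry12 and P2ry13 both lie inside the span of Med12l, which differed by 0.02 ± 0.04 (SE). Among the 10 nearest tested genes of each, the only one passing was the other receptor. Around Fcrls the only one was Dclk2, which was lower by 0.27 (-0.27 ± 0.06), and around Aif1 none of the 10 passed.

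Q192 arrays were also higher than arrays labelled KO, with P2ry13 alone passing. All 10 members were higher in Q192 (53.7% of all genes were), with a median difference of 0.15, and 1 of 10 passed, beside 0.401% of all genes, while 5 had an unadjusted p under 0.05 (9.53% of all genes). P2ry13 had 8.32, 8.59 and 8.86 at the lowest, median and highest Q192 array, against 7.90, 8.28 and 8.59 in arrays labelled KO. All 14 Q192 arrays lay above the mean of arrays labelled KO, though the ranges overlapped. The difference was 0.35 ± 0.08 (SE), 1.27-fold (adjusted p = 0.0308, limma). It did not pass without any 1 of 7 arrays (KO 0.35 replicate 1, KO 0.5 replicate 2, KO vehicle replicate 3, Q192 0.35 replicates 1 and 3, Q192 0.5 replicate 5 and Q192 vehicle replicate 2), with differences of 0.31 to 0.34 and adjusted p up to 0.135. Without KO 0.35 replicate 5 it was 0.38 (adjusted p = 0.00759), and the members' median was 0.14.

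None of the other 9 members passed in Q192. Fcrls differed by 0.34 ± 0.11 (SE, adjusted p = 0.212), P2ry12 by 0.23 ± 0.08 (adjusted p = 0.258) and Tmem119 by 0.18 ± 0.06 (adjusted p = 0.291). Of 30 other microglia genes 29 were higher and 2 passed, Dock2 at 0.33 ± 0.07 (adjusted p = 0.0048) and Slc2a5, a fructose transporter, at 0.34 ± 0.07 (adjusted p = 0.0081). This comparison shares the arrays labelled KO with the one before, so their likeness is no separate evidence. Between R192 and Q192 themselves 0 of 10 members passed (0.0736% of all genes did), with 1 at an unadjusted p under 0.05 (9.97% of all genes), Aif1 at 0.14 ± 0.05 (adjusted p = 0.430).

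Against WT no genotype gave a member that passed. Arrays labelled KO were lower than WT in 10 of 10 members (56.8% of all genes), with a median difference of -0.19, but 0 passed, beside 0.375% of all genes. At an unadjusted p under 0.05 there were 7 members and 4.88% of all genes. C1qa was the nearest: it had 8.32, 8.61 and 8.87 at the lowest, median and highest array labelled KO, against 8.27, 8.89 and 9.32 in WT. The WT range enclosed that of the arrays labelled KO, and the difference was -0.27 ± 0.08 (SE, adjusted p = 0.151). Without KO 0.35 replicate 5 the median was -0.20 and 0 passed. Without both WT 0.35 arrays of 1 shared number, described below, it was -0.24 and 4 of 10 passed (P2ry13, Fcrls, C1qa and C1qb), beside 0.468% of all genes, an alternative chosen after the data had been seen. The direction was not the same at every treatment. It was lower in 10 of 10 members with vehicle and at CPO 0.5, but higher in 8 of 10 at CPO 0.35, with a median difference of 0.03. R192 minus WT (0.87% of all genes passing) had 5 of 10 members higher beside 46.3% of all genes, and 0 passed. Q192 minus WT (0.455% passing) had 6 of 10 higher beside 47.3%, and 0 passed. In limma 0 members had an unadjusted p under 0.05 in either, beside 12.9% of all genes for R192 and 4.7% for Q192. Both also changed direction with treatment, in fits chosen after the data had been seen and with 0 passing. At CPO 0.35, 10 of 10 members were higher than in WT for both, with a median of 0.19 for R192 and 0.16 for Q192. At CPO 0.5, 9 of 10 were lower for both (-0.09 and -0.10). With vehicle 7 were lower for R192 and 8 for Q192. The share of all genes is not set beside these counts.

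In WT, the microglia genes were lower at the lower CPO dose than with vehicle, without passing. At CPO 0.35, 10 of 10 members were lower than with vehicle (52.4% of all genes), with a median difference of -0.28 where that of all genes was -0.0078. None passed, beside 0.00669% of all genes (1 gene), and 6 members had an unadjusted p under 0.05, beside 20.3% of all genes. The largest differences were those of Csf1r, Fcrls and Cx3cr1.

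Csf1r, the receptor that microglia need to survive, had 8.06, 8.43 and 8.96 at the lowest, median and highest of 6 arrays at CPO 0.35, against 8.61, 8.96 and 9.53 in 6 vehicle arrays. All 6 CPO 0.35 arrays lay below the vehicle mean, but the ranges overlapped. The difference was -0.48 ± 0.15 (SE, adjusted p = 0.120, limma). Cx3cr1 had 7.97, 8.51 and 8.81 at CPO 0.35, against 8.61, 8.73 and 9.34 with vehicle, and differed by -0.41 ± 0.11 (adjusted p = 0.120). Fcrls differed by -0.45 ± 0.16 (adjusted p = 0.131). For Trem2 the difference was -0.06, with a 95% interval of -0.20 to 0.08.

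Single arrays decided how many members passed. Without WT 0.35 replicate 4 the count was 5 of 10 (Fcrls, Cx3cr1, Csf1r, Tmem119 and C1qb), beside 8.88% of all genes in that fit. Without WT vehicle replicate 1 it was 4 (Fcrls, Cx3cr1, Csf1r and C1qb), beside 5.66% of all genes. The lowest CPO 0.35 array was replicate 1 for 5 members and replicate 2 for the other 5, and these are the 2 WT arrays of high Xist. They also carry the same description number, so the 6 arrays at CPO 0.35 hold 3 numbers, while the 6 vehicle arrays hold 4, with replicates 4 to 6 sharing 1. Without both of these CPO 0.35 arrays, an alternative chosen after the data had been seen, the median was -0.13 and 0 passed, and without the 3 arrays of high Xist it was also -0.13 with 0 passing. WT vehicle replicate 1 was the lowest vehicle array for 10 of 10 members, and replicate 4 the highest for 8. On the first array date alone the median was -0.21 with 0 passing, and on the second -0.36 with 2 passing beside 13.7% of all genes, Csf1r at -0.78 ± 0.18 (SE, adjusted p = 0.0154) and Cx3cr1 at -0.62 ± 0.16 (adjusted p = 0.0179).

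Genes of other cells lay in the same or the opposite direction between these WT groups. Their part in the result was not tested beyond the covariate fits given below. Of 21 oligodendrocyte genes 21 were lower at CPO 0.35, with a median difference of -0.40 and 0 passing, and their mean ran between 9.96 and 11.01, against 10.67 to 11.62 with vehicle. Of 11 oligodendrocyte precursor genes 11 were lower, of 15 endothelial genes 15, and of 26 brainstem neuron genes 23. Of 20 granule neuron genes 19 were higher, with their mean between 10.44 and 11.27 at CPO 0.35, against 9.34 to 11.33 with vehicle. With the oligodendrocyte mean as a covariate the members' median was -0.08, and with the brainstem neuron mean it was -0.09. Among signals to microglia, the ligands of CSF1R were also lower without passing, Csf1 by 0.37 (-0.37 ± 0.10) and Il34 by 0.34 (-0.34 ± 0.10), and so was the CX3CR1 ligand Cx3cl1 (-0.58 ± 0.18, all adjusted p = 0.120).

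**Figure D3:**
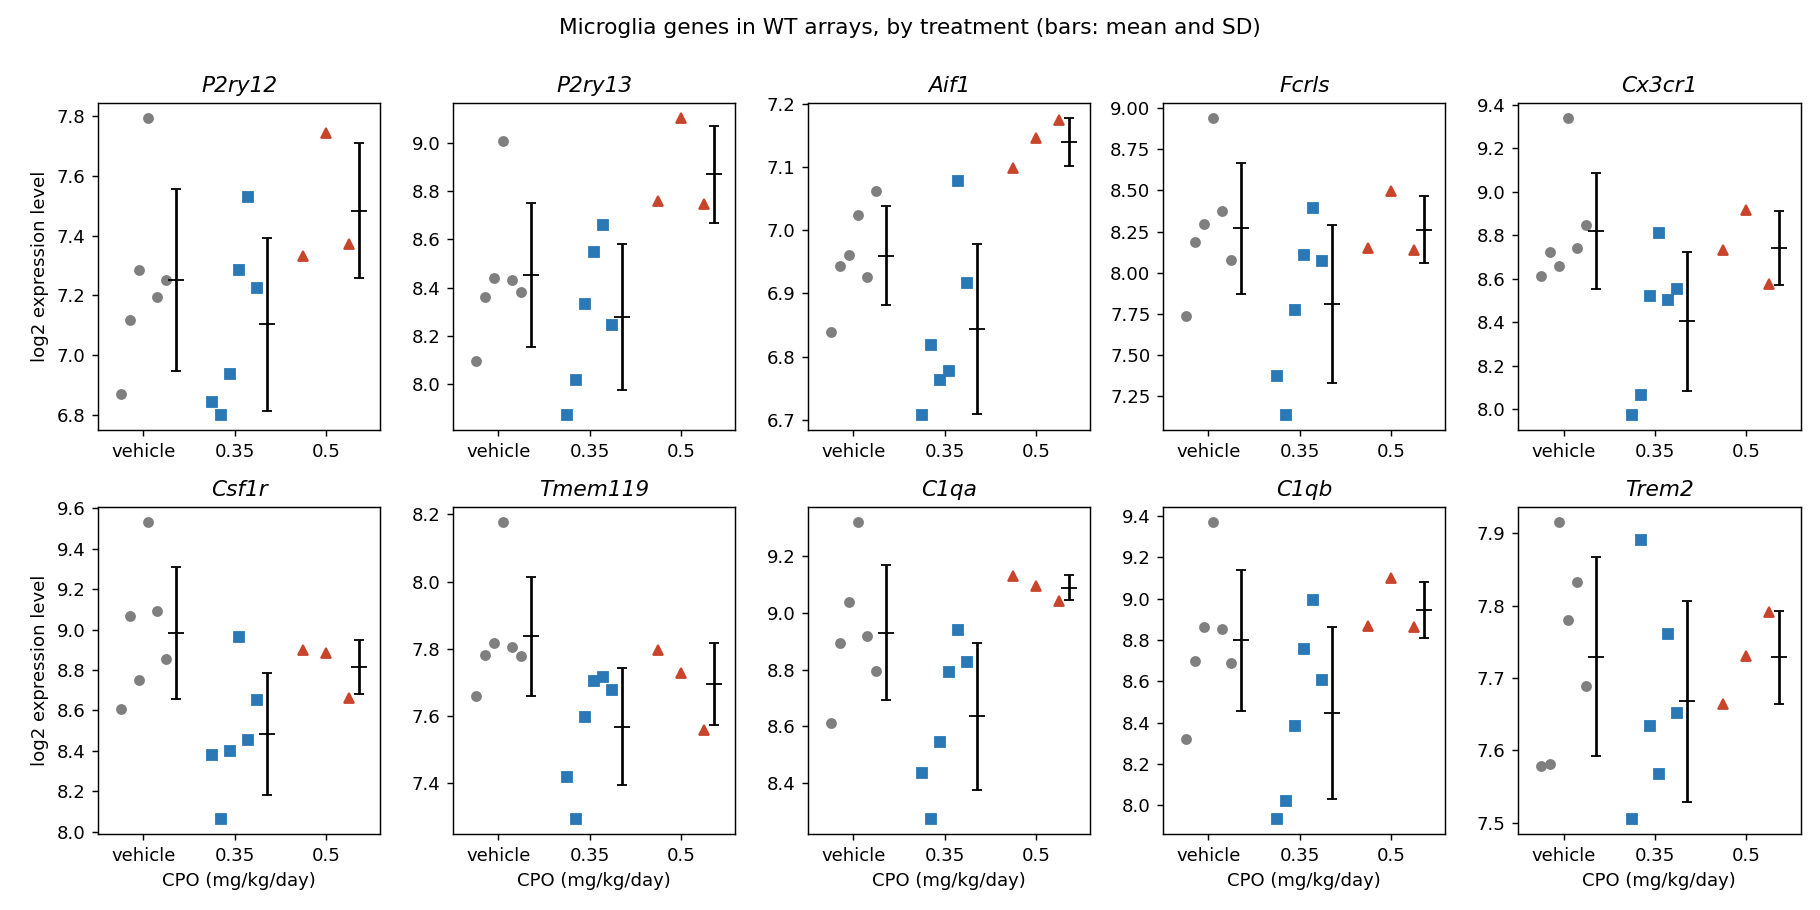
Log2 expression level of the 10 microglia genes in WT arrays by treatment, with 6 vehicle arrays, 6 at CPO 0.35 and 3 at CPO 0.5, and the mean and SD of each group. Most members are lowest at CPO 0.35, where the arrays spread widely, and P2ry13, Aif1 and C1qa at CPO 0.5 lie above every CPO 0.35 array.

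At the higher dose the WT members had no common direction. CPO 0.5 against vehicle had 5 members higher, beside 46.5% of all genes, and 5 lower. None passed, beside 1.04% of all genes, and 1 had an unadjusted p under 0.05, beside 21.9% of all genes, namely P2ry13 at 0.41 ± 0.15 (SE, adjusted p = 0.1003). CPO 0.5 against CPO 0.35 had 10 of 10 higher (48.1% of all genes), with a median difference of 0.33, and 1 of 10 passed, beside 1.46% of all genes. The median was 0.19 with the oligodendrocyte mean as a covariate, 0.11 with the brainstem neuron mean, 0.19 with the high-Xist arrays left out and 0.19 with both CPO 0.35 arrays of the shared number left out, and 0 passed in each. At an unadjusted p under 0.05 there were 7 members and 20.6% of all genes. P2ry13 had 8.76, 9.10 and 8.75 in the 3 arrays at CPO 0.5, against 7.87, 8.29 and 8.66 at the lowest, median and highest of 6 arrays at CPO 0.35. The groups did not overlap, and the difference was 0.58 ± 0.15 (SE), 1.49-fold (adjusted p = 0.0337, limma). The 3 arrays at CPO 0.5 hold only 2 description numbers, and the 6 at CPO 0.35 hold 3. The ranges were apart for 3 of 10 members (P2ry13, Aif1 and C1qa), beside 6.01% of all genes.

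That P2ry13 difference did not pass without any 1 of WT 0.35 replicates 1, 2 and 6 or WT 0.5 replicates 1 and 2, where it was 0.48 to 0.62 with adjusted p between 0.06001 and 0.317. It was 0.37 with the brainstem neuron mean as a covariate and 0.41 without the arrays of high Xist, and passed in neither. Of 30 other microglia genes 28 were higher at CPO 0.5 than at CPO 0.35 and 2 passed, the protease gene Ctss at 0.59 ± 0.15 (adjusted p = 0.0366) and the third C1q chain gene, C1qc, at 0.55 ± 0.15 (adjusted p = 0.0450). Of 21 oligodendrocyte genes 21 were higher too, with Opalin passing (0.88 ± 0.22, adjusted p = 0.0279), and of 20 granule neuron genes 20 were lower with 0 passing.

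In the other genotypes CPO gave no member that passed. At CPO 0.35 against vehicle the median difference of the 10 members was 0.04 in R192, -0.02 in Q192 and 0.07 in arrays labelled KO, and at CPO 0.5 against vehicle it was 0.04, 0.10 and -0.06. Without KO 0.35 replicate 5 the CPO 0.35 median in arrays labelled KO was 0.05. In these 6 comparisons and in CPO 0.5 against CPO 0.35 within the same genotypes, 0 of 10 members passed in limma and 0 had an unadjusted p under 0.05. Of all genes, 0.0468% passed for CPO 0.5 against CPO 0.35 in Q192 and 0% in the others. The share of all genes at an unadjusted p under 0.05 was 3.58% in R192, 2.05% in Q192 and 6.44% in arrays labelled KO for CPO 0.35 against vehicle. It was 1.02%, 13.2% and 12.8% for CPO 0.5 against vehicle, and 2.27%, 6.12% and 3.73% for CPO 0.5 against CPO 0.35. On the mean of 4 genotypes 0 members passed at either dose, beside 0% of all genes. There 0 members had an unadjusted p under 0.05 at CPO 0.35 (1.83% of all genes) and 1 at CPO 0.5 (4.84%).

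Whether the CPO effect differed between genotypes was tested directly for arrays labelled KO against WT and for R192 against Q192. The other pairs of genotypes were not tested in this way. The effect of CPO 0.35 was higher in arrays labelled KO than in WT for 9 of 10 members (56.5% of all genes), with a median difference of effects of 0.37, and 0 passed, beside 0.00669% of all genes. The median was 0.04 with the oligodendrocyte mean as a covariate, 0.02 with the brainstem neuron mean and 0.22 without the 3 arrays of high Xist, with 0 passing in each. At an unadjusted p under 0.05 there were 6 members and 25% of all genes. Csf1r had 0.62 ± 0.22 (SE, adjusted p = 0.0956), Cx3cr1 0.47 ± 0.17 (adjusted p = 0.0942) and Tmem119 0.38 ± 0.14 (adjusted p = 0.0956). Without KO 0.35 replicate 5, in which Csf1r was at its lowest of all arrays (7.95), these 3 passed, at 0.81 (adjusted p = 0.0167), 0.48 (adjusted p = 0.0494) and 0.43 (adjusted p = 0.0314). In that fit 16.6% of all genes passed. The same 3 also passed without WT 0.35 replicate 4 (10.2% of all genes), Csf1r and Tmem119 without KO vehicle replicate 2 (9.41%), and Csf1r on the second array date alone (6.17%). The WT arrays in this contrast are those described above, with the same marker values. For CPO 0.5 the difference of effects between arrays labelled KO and WT had 0 members passing although 9.2% of all genes passed, and 2 at an unadjusted p under 0.05 (31.7% of all genes), P2ry13 at -0.50 ± 0.21 (adjusted p = 0.107) and Aif1 at -0.34 ± 0.14 (adjusted p = 0.0900). Between R192 and Q192 the effects of either dose differed in 0 members, beside 0% of all genes. In limma 0 members had an unadjusted p under 0.05, beside 5.56% of all genes at CPO 0.35 and 6.93% at CPO 0.5.

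The members did not vary as 1 block from array to array. After group means and array date were taken out, the correlation between members over 55 arrays had a median of 0.45 over 45 pairs and was above 0 in 39. C1qb and Fcrls (r = 0.83), C1qa and C1qb (0.82) and the neighbouring receptors P2ry12 and P2ry13 (0.75) were the closest pairs. Csf1r went with Cx3cr1, C1qa and Tmem119 (0.72, 0.72 and 0.70) but little with P2ry12 or P2ry13 (0.17 and 0.20), and was below 0 with Aif1 and Trem2 (both -0.20). Trem2 was above 0.3 with no member. The points share their arrays and the probe summary, and arrays of 1 number may share a source, so these are descriptions of 55 arrays.

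**Figure D4:**
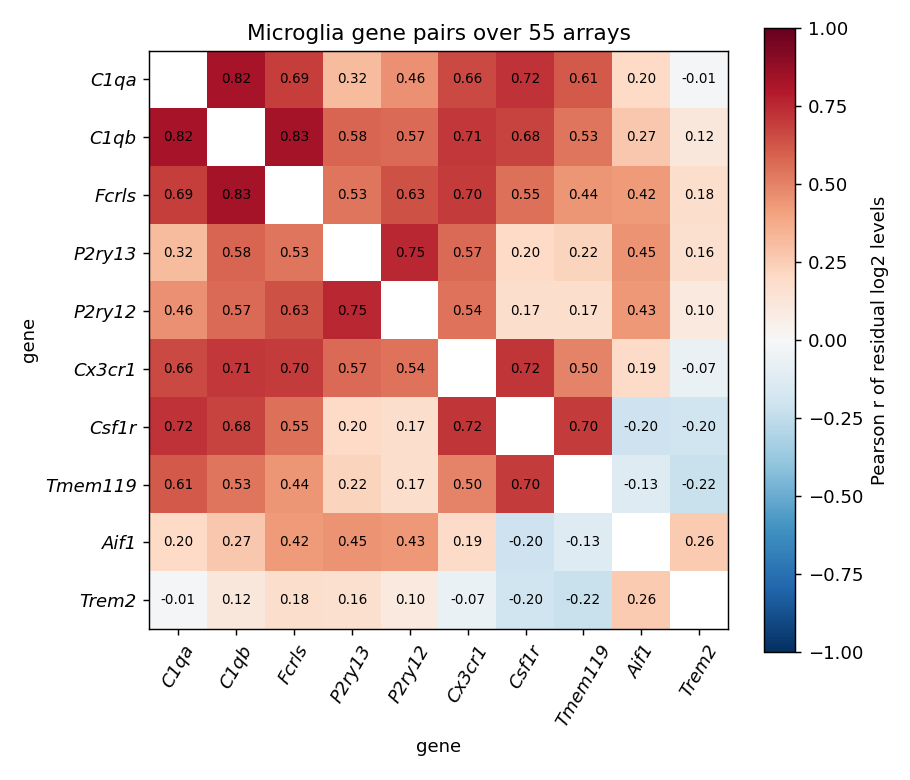
Pearson correlation of each pair of microglia genes over 55 arrays, from log2 levels with group means and array date taken out, on a colour scale of -1 to 1. C1qa, C1qb, Fcrls and Cx3cr1 go together, P2ry12 goes with P2ry13, and Trem2 and Aif1 stand apart from Csf1r and Tmem119.

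The genes whose residuals were most like the mean of the 10 were Epb41l2 (r = 0.89), Prkcq (0.89), C1qc (0.88), Gdpd2 (0.88), Itgam (0.88), Itga6 (0.87), Idh1 (0.87), Lpcat2 (0.87), Mog (0.85) and Nipa1 (0.85). Of these, C1qc, Itgam and Lpcat2 were in the list of other microglia genes and Mog, a myelin protein gene, in that of oligodendrocytes. Taken singly, Fcrls had C1qb as its nearest gene of all tested and C1qa and C1qb had C1qc (0.88 and 0.92), whereas Csf1r was nearest to Serinc5 (0.90) and Tmem119 to Padi2 (0.84). Aif1 was nearest to Cd53 (0.73) and Trem2 to 1700020D05Rik (0.55). P2ry12 was nearest to St8sia4 (0.88), P2ry13 to Mpp5 (0.84) and Cx3cr1 to Scn3b (0.86). For P2ry12, 127 genes were nearer than P2ry13, and for P2ry13, 40 were nearer than P2ry12. Between 218 and 1095 genes were nearer than any member for Cx3cr1, Tmem119, Csf1r, Aif1 and Trem2, against 0 for Fcrls, 1 for C1qa and 4 for C1qb.

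The mean of the members followed that of the 30 other microglia genes closely (r = 0.97 over 55 arrays, 0.95 without the 2 arrays farthest out). It also followed oligodendrocyte precursor (0.85), brainstem neuron (0.81) and oligodendrocyte genes (0.80), and ran against granule neuron genes (-0.74). With border macrophage genes r was 0.37. On each array date alone these lists kept their signs. The lowest mean residual was that of WT 0.35 replicate 2 and the highest that of WT vehicle replicate 4.

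**Figure D5:**
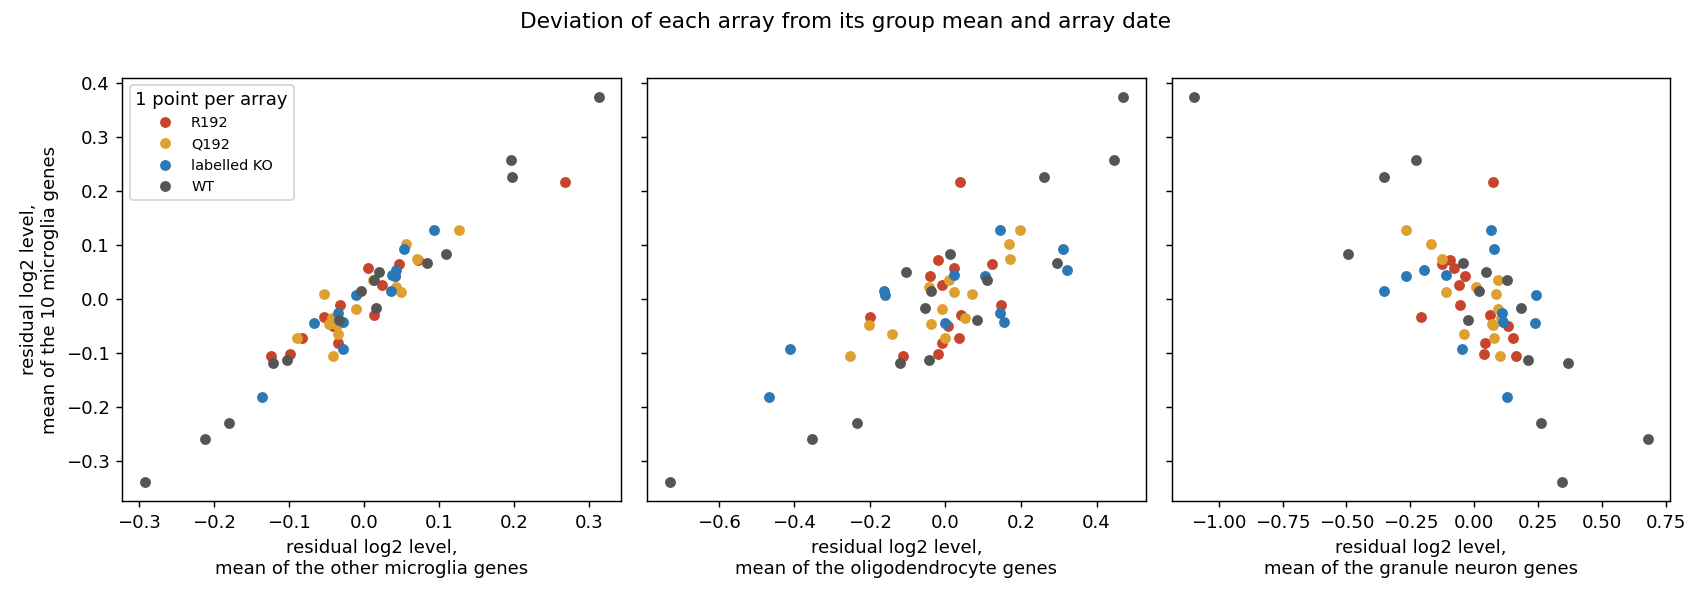
Mean residual log2 level of the 10 microglia genes (y axis) in each of 55 arrays against that of other microglia, oligodendrocyte and granule neuron genes (x axes), by genotype, after group means and array date were taken out. The points rise tightly with other microglia genes (r = 0.97), more loosely with oligodendrocyte genes (0.80), and fall with granule neuron genes (-0.74).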

How the data were processed

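RNA of 55 arrays was measured with 1 biotin label. Per the submitters' processing notes, the deposited values came from Affymetrix Expression Console 1.1 with RMA, which corrects background, equalises the distributions of arrays and summarises probes. The authors' scale is unnamed, and the values, running between 1.15 and 14.80, were taken as log2 levels and not normalised again. Of 35557 probe sets, the 21789 with 1 gene symbol were used, and the highest of several for 999 genes, which gave 19938 genes. Genes with a mean above the 25th percentile (6.44), without 4 sex-linked ones, were tested. A genome build was not given in the sources used here.

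Limma 3.58.1 in R 4.3.3 fitted all arrays together, with a mean for each of 12 groups, the array date (2 dates) as a covariate, and a correlation of 0.131 between arrays of 1 description number, leaving 42 residual degrees of freedom. The meaning of that number is not stated. Tests were two-sided with Benjamini and Hochberg adjustment over 14949 genes within each of 24 comparisons, and "passed" means an adjusted p under 0.05. Effects on the mean of 3 treatments weight each treatment equally. The fit was tested on simulated data. Tables and figures used Python 3.11.15. Array number limits the precision.

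The members and marker lists were chosen with earlier results of these data known. All 10 members are named throughout, with list genes that passed, or the 3 of smallest p, and the 10 genes most like the members. Alternatives left out the date, the number correlation, the filter, the variance trend or single arrays, and used other filters, array weights, median centring, single dates, only the groups compared, averaged probe sets, cell type covariates or a replicate block.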

Additional observations from a re-analysis of the deposited data

Results flagged for a closer look

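In 10 of 100 sets of 1 microglia gene in 1 group of 4 to 10 arrays, the highest or lowest array stood far from the rest by Dixon's criterion, which chance meets in about 1 in 20 sets. Sets of the same group share their arrays, and WT vehicle replicate 4 and R192 0.35 replicate 5 each appear in more than 1 flagged set. The 10 of 100 therefore cannot be read as an excess over chance. KO 0.35 replicate 5 had the lowest Csf1r at 7.95, with its nearest neighbour at 8.77. WT vehicle replicate 4 had the highest Cx3cr1 at 9.34 (next 8.85) and the highest Tmem119 at 8.18 (next 7.82). R192 0.35 replicate 5 had the highest Cx3cr1 at 8.94 (next 8.58) and the highest C1qb at 9.21 (next 8.69), and R192 0.5 replicate 5 the highest C1qb of its group at 8.89 (next 8.61). P2ry12 was highest in KO vehicle replicate 4 at 7.27 (next 6.92) and Tmem119 in Q192 0.35 replicate 4 at 7.97 (next 7.69). Aif1 was lowest in Q192 vehicle replicate 1 at 6.66 (next 6.91), and Fcrls in R192 vehicle replicate 1 at 8.01 (next 8.27). The cause of these values was not tested.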

How the results depend on the processing

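Of 830 recounts of the members that passed, 766 kept the count within 1.5 times, 31 were higher and 33 lower. In most comparisons the main count was 0, so many kept counts are 0 in both fits. Each member has 1 probe set, so averaging probe sets left the member values unchanged. The fit without KO 0.35 replicate 5 entered the recounts both as the array of shared number and as a single array left out. Of 8204 single-gene values, 0 turned from a called difference to the opposite sign. Few of those values belonged to a called difference, so few could turn. By the rules used, 473 single-gene values were counted as moved, 73 as stronger and 47 as weaker, and 29 of 830 medians as moved. R192 against arrays labelled KO (4 of 10) gave 4 with any array left out and with the replicate block, but 2 with the filter at the 50th percentile, where P2ry12 and Aif1 were not tested, and 0 on each array date and in vehicle, CPO 0.35 or CPO 0.5 arrays alone, all with fewer arrays. Q192 against arrays labelled KO (1) gave 3 with array quality weights, 2 with only the groups compared, and 0 on either date alone, in any treatment alone, with the replicate block or with oligodendrocyte or brainstem markers as a covariate, and 0 to 1 with an array left out. Arrays labelled KO against WT (0) gave 5 with array quality weights, 4 with oligodendrocyte and 1 with brainstem markers, 3 without the arrays of high Xist, 4 without both WT 0.35 arrays of 1 number (chosen after seeing the data), and 0 to 1 with an array left out. Q192 against WT (0) gave 1 with oligodendrocyte markers, and R192 against WT (0) gave 1 with array quality weights. These counts are not set beside the share of all genes in the same fit, and the range of that number over the settings is given below.

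CPO 0.35 in WT (0) gave 2 on date 2 alone, 2 with no correlation between arrays of the same number, and 0 to 5 with an array left out. CPO 0.5 in WT (0) gave 1 with array quality weights, 1 with oligodendrocyte markers, and 0 to 1 with an array left out. CPO 0.5 against CPO 0.35 in WT (1) gave 5 with the replicate block, 3 with no number correlation, 2 with array quality weights, 2 without the KO 0.35 array of shared number, 0 on either date alone, with only the groups compared, with oligodendrocyte or brainstem markers, without the arrays of high Xist or without both WT 0.35 arrays of 1 number, and 0 to 5 with an array left out. The difference of CPO 0.35 effects between KO and WT (0) gave 1 on date 2 alone, 3 without the KO 0.35 array of shared number, and 0 to 3 with an array left out. That of CPO 0.5 effects (0) gave 1 with the replicate block, 1 without that array, and 0 to 1 with an array left out. The number of all genes passing moved too, for R192 against arrays labelled KO (839) between 10 on date 1 alone and 5401 with array quality weights, for Q192 against those arrays (60) between 10 at CPO 0.35 alone and 1494 with the weights, and for CPO 0.5 against CPO 0.35 in WT (219) between 0 on either date alone and 1418 with an array left out. For CPO 0.35 in WT (1) it reached 2043 on date 2 alone, and for the CPO 0.5 difference of effects (1375) it ran between 0 and 2979. The ranges were 12 to 344 for arrays labelled KO against WT (56), 15 to 1383 for R192 against WT (130), 16 to 162 for Q192 against WT (68), 0 to 295 for R192 against Q192 (11) and 0 to 2515 for CPO 0.5 in WT (155), and for the CPO 0.35 difference of effects (1) the count was 922 on date 2 alone. The causes of these changes were not tested.

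The replicate numbers of the titles did not pair arrays across groups: residuals of same-numbered arrays had a median correlation of 0.018 over 265 pairs, with 103 above 0.1. For arrays of different replicate number in different groups the median was -0.004 over 1116 pairs, with 401 above 0.1. Beside the counts above, the replicate block left every count within 1.5 times. Limits are the arrays of unknown animal source, 3 arrays of 2 description numbers in WT and in KO at CPO 0.5, sex unlabelled, and a Pon1 level that goes against the KO label.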
